A study of Mus musculus with 2 samples.

Results

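The mitochondrial carrier family (SLC25) was described in RNA of mouse erythroblasts, precursors of the red cell that still carry a nucleus. Its members were 49 protein-coding genes, namely those with symbols starting Slc25a in the GENCODE mouse annotation, without Slc25a37, and the uncoupling proteins Ucp1, Ucp2 and Ucp3, of 21461 nuclear protein-coding genes in all. The assay was total RNA-seq after removal of ribosomal RNA, with 2 libraries of 1 group, called replicates 1 and 2, and there was no second group to compare. Per the labels, the erythroblasts were primary cells of adult male C57BL/6J mice aged 5 to 6 weeks, isolated from bone marrow, and 100 ng of RNA went into each ScriptSeq library. The labels name no treatment and no altered gene. Both biosamples carry 1 shared donor record, so the spread between the libraries may be partly technical, and each library counts as a single sample throughout.

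Carriers of this family sit mostly in the inner mitochondrial membrane, where each swaps or imports a small set of solutes: nucleotides, phosphate, amino acids, carboxylates, vitamins and cofactors. The membrane is otherwise closed to these molecules, so matrix pathways such as heme synthesis, the citric acid cycle and ATP export depend on them. In erythroblasts, heme synthesis starts in the matrix from glycine and succinyl-CoA and ends there with the insertion of iron, and mitochondria are removed as red cells mature.

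Replicate 1 held 37312624 expected counts over Ensembl genes and replicate 2 held 22464724, so that 3 counts, the limit that a count of 0 allows, stand for 0.0804 and 0.134 CPM. Nuclear protein-coding genes held 11.3% of the deposited TPM in replicate 1 and 6.89% in replicate 2, and features of other classes held the rest. Levels are therefore given as coding-scaled TPM, the deposited TPM times a factor per library that brings the sum over the 21461 nuclear protein-coding genes to 1000000; it is a level per transcript length and can be compared between genes. Mitochondrially encoded mRNAs held 13.2% of the counts in replicate 1 and 6.78% in replicate 2. All 10 erythroid markers were detected, with summed levels of 338079 and 281892, but so were all 10 neutrophil markers, with summed levels of 20352 and 19884, and all 10 monocyte and macrophage markers, with 2886 and 2249. Of 8 megakaryocyte markers 5 were detected (summed levels 124 and 147), among them Itga2b with 77.6 and 105, and of 10 lymphocyte markers 4 were (79.4 and 63.1), among them Jchain with 38.3 and 39.9. Among the defining genes of other tissues, all 6 liver markers were at 0 in both libraries, as were 5 of 7 muscle markers and 5 of 6 testis markers. In bulk RNA, fewer cells of a type and less RNA per cell cannot be told apart, and which cell type gave the carrier RNA was not tested.

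Of the 49 carriers, 31 (63.3%) were detected, meaning a level of at least 1 coding-scaled TPM in both libraries, against 43.9% of all nuclear protein-coding genes. Other solute carriers, the 338 genes with symbols starting Slc outside this family, were detected in 36.1% of cases, and the 85 nuclear subunits of oxidative phosphorylation in 90.6%. The median level of the 49 carriers was 3.55 in replicate 1 and 4.93 in replicate 2, against medians of 0.18 and 0.15 for other solute carriers and 37.0 and 49.0 for oxidative phosphorylation subunits. The 41 carriers with any TPM had a median percentile of 49.0 among expressed protein-coding genes, where the same median was 32.1 for other solute carriers and 85.9 for oxidative phosphorylation subunits. The expressed carriers thus stood near the middle of the expressed genes, and their RNA was spread unevenly over the members.

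The 49 carriers summed to 3288 coding-scaled TPM in replicate 1 and 3391 in replicate 2 (mean 3339 ± 72.4 SD, n = 2), which was 0.33% and 0.34% of all coding TPM. Ucp2 and Slc25a51 alone held 67.8% of that sum in replicate 1 and 69.4% in replicate 2 (68.6 ± 1.14 SD, n = 2). With Slc25a39, Slc25a38 and Slc25a5 added, the 5 members that reached 100 coding-scaled TPM in both libraries held 89.1% and 90.0%. Another 11 members had at least 10 coding-scaled TPM in both libraries without reaching 100 in both, 15 were detected with under 10 in at least 1 library, and 18 were not detected.

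**Figure D1:**
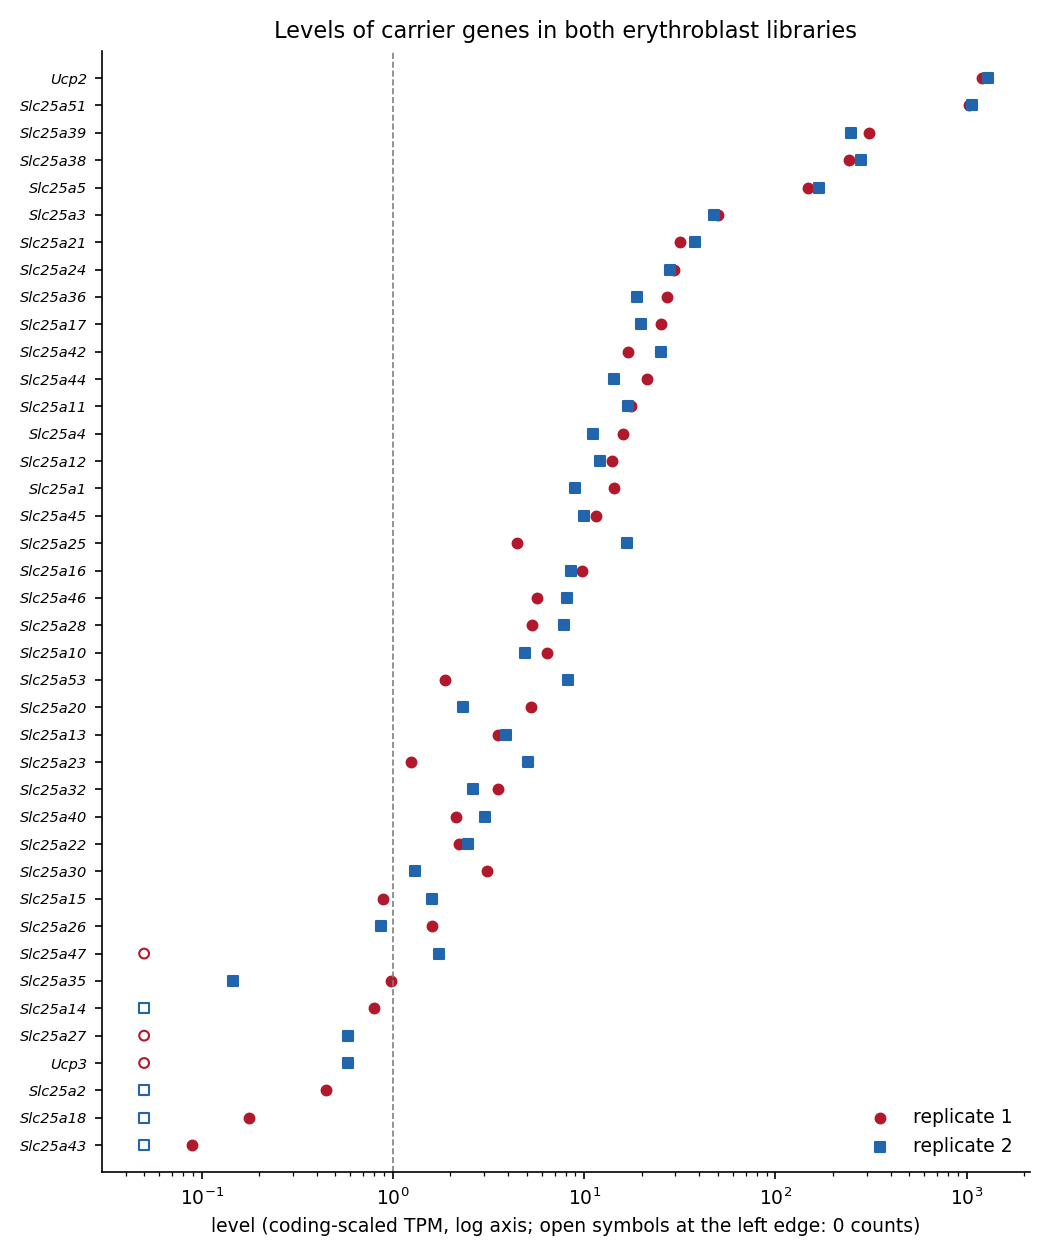
Level of 40 of the 41 carriers with any TPM, in coding-scaled TPM on a log axis, with a circle for replicate 1 and a square for replicate 2; the dashed line is the detection limit of 1. Ucp2 and Slc25a51 lie between 1028 and 1287 in both libraries, Slc25a39, Slc25a38 and Slc25a5 lie between 148.9 and 307.6, and open symbols at the left edge mark 0 counts in 1 library.

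By the role lists, cofactor carriers held 43.1% of the family's TPM in replicate 1 and 40.8% in replicate 2 (42.0 ± 1.66 SD, n = 2), nearly all of it from 2 genes. Uncoupling proteins and their close relatives held 36.7% and 38.0% (37.4 ± 0.97 SD, n = 2), nearly all of it from Ucp2. Amino acid carriers held 8.67% and 9.25%, and ADP/ATP and phosphate carriers held 6.54% and 6.70%. The carriers of di- and tricarboxylates, keto acids and acylcarnitines held 2.29% and 2.10% together. Shares of the 4 other groups were under 2% each in both libraries.

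**Figure D2:**
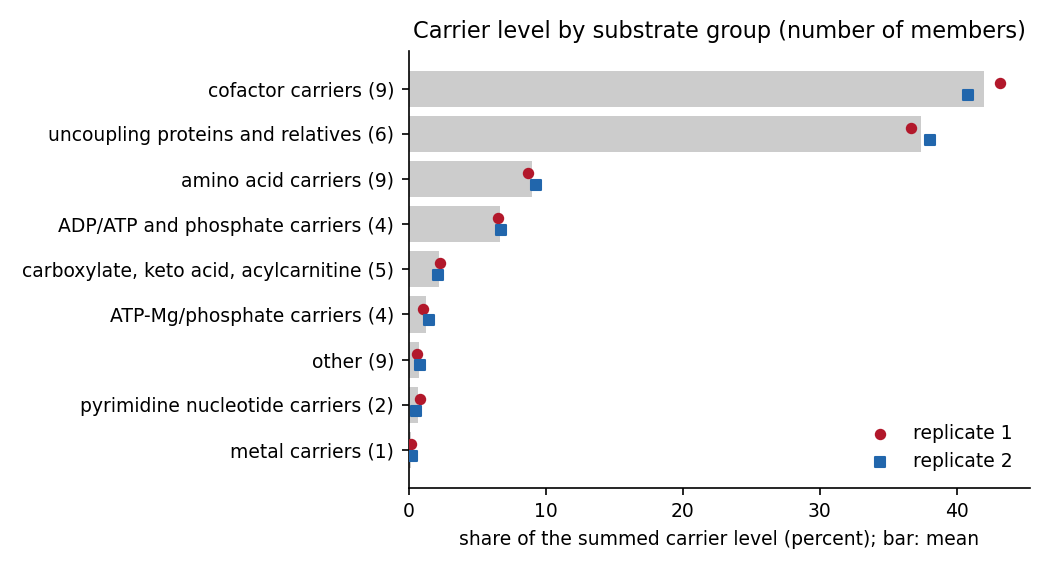
Share of the family's summed coding-scaled TPM held by each role list, in percent, with the number of members in brackets, a circle for replicate 1, a square for replicate 2 and a bar for their mean. Cofactor carriers at 42.0% and uncoupling proteins at 37.4% on average stand far above amino acid carriers at 8.96%, and both libraries give this order.

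Among the carriers of cofactors, Slc25a51 (chr4:45395923-45408766, minus strand, GRCm38), which carries NAD+ into mitochondria of human cells, was by far the highest. It had 1028 coding-scaled TPM in replicate 1 and 1067 in replicate 2 (1048 ± 27.1 SD, n = 2), from 45823 and 23447 counts. It stood at percentile 99.3 among expressed coding genes. Slc25a39 (chr11:102402985-102407946, minus strand), needed for glutathione uptake by mitochondria, had 308 and 249 coding-scaled TPM (278 ± 41.4 SD, n = 2). Its paralog Slc25a40 had 2.13 and 3.05, so Slc25a39 exceeded it 144-fold in replicate 1 and 81.8-fold in replicate 2. The paralogs are taken to share a substrate, and in these libraries nearly all RNA of the pair came from 1 gene.

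The other cofactor carriers described here were low and closer together. Slc25a17, the peroxisomal member that carries CoA and flavin and nicotinamide cofactors, had 25.2 and 19.9 coding-scaled TPM. Slc25a42, a CoA carrier, had 17.0 and 25.1, and Slc25a16, linked to CoA uptake, had 9.77 and 8.56, a fold between them of 1.74 and 2.93. Most TPM of Slc25a42 lay on models with a retained intron, and over coding transcripts it had 5.15 and 6.35 coding-scaled TPM, below Slc25a16 in both libraries. Slc25a32, a carrier of folate or flavin cofactors, had 3.55 and 2.61, and Slc25a26, the S-adenosylmethionine carrier, had 1.60 and 0.87 and missed the detection limit in replicate 2. Slc25a17 and Slc25a42 changed places between the libraries over all transcripts, while over coding transcripts Slc25a17 kept its 25.2 and 19.9 and lay above Slc25a42 in both.

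Ucp2 (chr7:100493337-100502020, plus strand), an uncoupling protein that also moves C4 carboxylates out of mitochondria, was the highest member of the family by TPM over all transcripts. It had 1202 coding-scaled TPM in replicate 1 and 1287 in replicate 2 (1244 ± 60.6 SD, n = 2), from 46061 and 17297 counts. It exceeded Slc25a51 1.17-fold in replicate 1 and 1.21-fold in replicate 2. Over coding transcripts Ucp2 lay below Slc25a51 in replicate 2, with 481 against 630. Its mean count was lower, with 31679 against 34635, though in replicate 1 it was higher, with 46061 against 45823. Counts do not allow for transcript length, so they do not rank these genes. Ucp2 is known from many blood cells, and neutrophil and macrophage RNA was present in both libraries; their part in its level was not tested. Ucp3, its neighbour 6904 bases upstream on the same strand and best known from muscle, had 0 and 0.58 coding-scaled TPM. Ucp1, the uncoupling protein of brown fat, had 0 counts in both libraries, a count that allows up to 0.136 and 0.259 coding-scaled TPM. The other brown fat markers Cidea, Elovl3 and Adipoq were also at 0, while Dio2 had 3.64 and 4.35. Of the brain-enriched relatives, Slc25a14 had 0.80 and 0 and Slc25a27 had 0 and 0.58, and Slc25a30, first described from kidney, had 3.11 and 1.31.

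The 250 bases up to the RefSeq start of Ucp2 are shown because this gene had the largest share of the family's TPM over all transcripts. They come from the RefSeq promoter table on GRCm38.p6, chr7:100493108-100493357, plus strand, and capitals mark each match to CCNCNCCC, the core of the CACC box that red cell factors of the KLF family bind, on either strand.
Ucp2 promoter: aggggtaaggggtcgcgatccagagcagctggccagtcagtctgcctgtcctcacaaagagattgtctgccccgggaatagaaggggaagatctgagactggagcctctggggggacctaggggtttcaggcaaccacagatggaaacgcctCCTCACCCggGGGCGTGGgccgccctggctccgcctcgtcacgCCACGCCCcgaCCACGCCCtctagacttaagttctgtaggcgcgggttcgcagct
The window held 4 matches to CCNCNCCC, no match to the GATA hexamers (AGATAA or TGATAA or AGATAG or TGATAG, either strand), and 16 CpG pairs, with 63.6% G or C. Of 49 promoters listed for 39 of the members, 32 (65.3%) held CCNCNCCC, against 45.9% of all 32851 promoters of the same length. GATA hexamers were in 6 of the 49 (12.2%), against 26.5% of all promoters. Promoters of members had a median of 12 CpG pairs where the gene was detected and 9.5 where it was not, against 6 over all promoters; CCNCNCCC is rich in C and the GATA hexamers in A and T, and the shares describe letters in these windows, not binding. By gene, CCNCNCCC was listed for 19 of the 26 detected members and 8 of the 13 undetected ones with a promoter in the table. A gene counts here if any of its promoters matched, so the 45.9% by promoter is not a like measure. No share by gene was taken over all genes.

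Amino acid carriers were led by Slc25a38 (chr9:120110374-120124504, plus strand), the glycine importer that feeds the first step of heme synthesis and whose loss causes a sideroblastic anemia in people. It had 243 coding-scaled TPM in replicate 1 and 279 in replicate 2 (261 ± 25.9 SD, n = 2), from 3097 and 2057 counts. Its level was 1.63-fold and 1.66-fold that of Slc25a5, the leading ADP/ATP carrier, in replicates 1 and 2. Processed transcripts without a coding frame held 55.9% and 47.1% of the TPM of Slc25a38, and over coding transcripts alone the order turned round, with 92.5 and 148 coding-scaled TPM for Slc25a38, against 147 and 149 for Slc25a5. Alas2, the enzyme that uses the glycine, had 3589 and 4077. The annotation gives Slc25a38 an upstream and an internal first exon, each with a coding start of its own, and both had counts. The coding parts of these first exons are shown, read from GENCODE M21 transcripts on GRCm38, plus strand, with the start codon in capitals; the upstream one lies at chr9:120110444-120110572 and the internal one at chr9:120115111-120115176.
Slc25a38 upstream coding start: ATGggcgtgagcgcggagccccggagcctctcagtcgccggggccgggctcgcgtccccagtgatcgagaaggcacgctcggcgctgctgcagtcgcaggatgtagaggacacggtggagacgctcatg
Slc25a38 internal coding start: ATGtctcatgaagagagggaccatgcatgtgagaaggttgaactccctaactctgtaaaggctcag
Transcripts with the internal first exon, Slc25a38-202 and Slc25a38-207, held 37.2% of the gene's TPM in replicate 1 and 48.6% in replicate 2, and those with the upstream first exon held 62.8% and 51.4%. By counts the internal group was smaller, with 443 counts (14.3%) and 488 counts (23.7%), since Slc25a38-207 is a model of 492 bases classed as processed transcript and so without a coding frame. Slc25a38-202, the coding model of that group, had 45.3 and 218 counts, against 2161 and 1451 counts for Slc25a38-201, the coding model with the upstream start.

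The other amino acid carriers were much lower. Slc25a44, a carrier of branched-chain amino acids, had 21.3 and 14.4 coding-scaled TPM. The aspartate/glutamate carriers of the malate-aspartate shuttle were Slc25a12, with 14.0 and 12.0, and Slc25a13, with 3.55 and 3.92. The fold of Slc25a12 over Slc25a13 was 3.92 in replicate 1 and 3.07 in replicate 2. Only 16.6% and 26.1% of the TPM of Slc25a12 lay on its coding transcript, and over coding transcripts its 2.31 and 3.15 coding-scaled TPM were below the 3.55 and 3.92 of Slc25a13. The glutamate carrier Slc25a22 had 2.22 and 2.47, while the other glutamate carrier, Slc25a18, had 3 counts in replicate 1 and 0 in replicate 2. The level of Slc25a22 is uncertain, since its mean of 2.34 became 12.6 with posterior mean TPM. Its 77 and 41 counts were assigned to different transcripts in the libraries. The ornithine carriers of the urea cycle were Slc25a15, with 0.89 and 1.60, and Slc25a2, with 0.44 and 0, and Slc25a29, a carrier of basic amino acids, was at 0 in both libraries. None of these 3 carriers passed the detection limit in both libraries, and Arg2, the mitochondrial arginase, was not detected among the enzymes listed with them.

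Of the ADP/ATP carriers, Slc25a5 (chrX:36795651-36798807, plus strand), the form of dividing cells, had 149 and 168 coding-scaled TPM (159 ± 13.7 SD, n = 2). Slc25a4, the form of heart and skeletal muscle, had 15.9 and 11.2, so Slc25a5 exceeded it 9.36-fold in replicate 1 and 15.1-fold in replicate 2. Slc25a31, the form of male germ cells, had 0 counts in both libraries. Slc25a5 and Slc25a36 were the only 2 members whose reads were shared with similar sequences in the authors' estimates, with posterior standard deviations of 1.50 and 1.30 counts for Slc25a5 on 2364 and 1349 counts.

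Slc25a3 (chr10:91116574-91124059, minus strand), the phosphate carrier, had 50.4 and 47.9 coding-scaled TPM (49.1 ± 1.78 SD, n = 2), a level 2.96-fold and 3.52-fold below that of Slc25a5 (5.67-fold and 4.80-fold over coding transcripts). It has a pair of alternative exons at position 3: transcripts with the upstream exon are known as the form of heart and skeletal muscle, and those with the downstream exon as the form found widely. The exons are printed from GENCODE M21 transcripts on GRCm38, minus strand, since they tell the forms apart. The upstream exon lies at chr10:91122207-91122331 and the downstream one at chr10:91121922-91122043, and capitals mark the 77 of 122 aligned bases (63.1%) at which both are identical.
Slc25a3 upstream exon 3: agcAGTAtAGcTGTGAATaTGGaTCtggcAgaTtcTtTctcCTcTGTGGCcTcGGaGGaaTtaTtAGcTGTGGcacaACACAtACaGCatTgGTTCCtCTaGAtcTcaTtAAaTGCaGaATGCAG
Slc25a3 downstream exon 3: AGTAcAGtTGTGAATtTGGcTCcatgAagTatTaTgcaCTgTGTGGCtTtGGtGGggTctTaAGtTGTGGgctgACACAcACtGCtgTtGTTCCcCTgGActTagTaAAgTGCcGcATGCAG
Transcripts with the downstream exon held 51.4% of the gene's TPM in replicate 1 and 65.0% in replicate 2, with 558 and 352 counts. Transcripts with the upstream exon held 4.38% and 0%, with 40.4 and 0 counts, all of them assigned to Slc25a3-202, a model classed for nonsense-mediated decay. The coding model with the upstream exon, Slc25a3-206, had an estimate of 0 in both libraries. Its posterior mean shares were 0.39% and 2.02%, with posterior standard deviations of 3.29 and 8.55 counts. Models with a retained intron held 44.3% and 17.8% of the gene's TPM.

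The carriers of ATP-Mg and phosphate, most of which calcium regulates, were Slc25a24 with 29.6 and 28.0 coding-scaled TPM, Slc25a25 with 4.44 and 16.8, Slc25a23 with 1.24 and 5.08, and Slc25a41 at 0. The levels of Slc25a23 rest on 30 counts in replicate 1 and 33 in replicate 2. Its effective length, averaged over its transcripts, came to 1628 and 850 bases, so these levels are uncertain. Slc25a24 lay above Slc25a25 in both libraries, 6.66-fold in replicate 1 and 1.66-fold in replicate 2, and 7.56-fold and 5.99-fold over coding transcripts. Of the pyrimidine nucleotide carriers, Slc25a36 had 27.3 and 19.0 and Slc25a33 was at 0 in both libraries. Slc25a28, the mitoferrin that carries iron in most tissues, had 5.33 and 7.83.

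Of the carboxylate carriers, all 5 were detected. Slc25a21, a carrier of 2-oxoadipate and 2-oxoglutarate, was the highest, with 31.8 and 38.1 coding-scaled TPM (35.0 ± 4.48 SD, n = 2). Slc25a11, the 2-oxoglutarate/malate carrier of the malate-aspartate shuttle, had 17.5 and 17.0, and Slc25a10, the dicarboxylate carrier, had 6.40 and 4.93, a fold of 2.74 and 3.44 (3.51 and 6.42 over coding transcripts). Slc25a1, which exports citrate for lipid synthesis, had 14.4 and 8.99, and Slc25a20, which brings acylcarnitines in for fat oxidation, had 5.24 and 2.32. Over coding transcripts Slc25a1 had 6.18 and 1.68.

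Members without a settled substrate, or with another function, were low. Slc25a45 had 11.6 and 10.01 coding-scaled TPM. Slc25a46, an outer membrane protein of mitochondrial dynamics, had 5.69 and 8.12, and Slc25a53 had 1.87 and 8.27 (0.19 and 0.27 over coding transcripts). Slc25a34, Slc25a48 and Slc25a54 were at 0 in both libraries. Slc25a35 had 25 counts in replicate 1 and 1 in replicate 2, and Slc25a47, a liver carrier in mice, had 0 and 20 counts.

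Of the 18 members not detected, 8 had 0 counts in both libraries (Slc25a29, Slc25a31, Slc25a33, Slc25a34, Slc25a41, Slc25a48, Slc25a54 and Ucp1) and 7 had 0 counts in 1 library. The remaining 3, Slc25a15, Slc25a26 and Slc25a35, had counts in both. For the 8 at 0 in both libraries, 3 counts would stand for between 0.062 and 0.224 coding-scaled TPM in replicate 1 and between 0.120 and 0.421 in replicate 2, so lower levels were not detectable at this depth. A count near 0 is not taken as absence, because Timm9, which every cell needs to deliver carriers to the inner membrane, was listed with 3 and 0 counts.

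In 5 places, 2 carrier genes lie within 20 kb of each other, and in 4 of them 1 neighbour had at least 1.24 coding-scaled TPM in both libraries while the other stayed under 1. Besides Ucp3 and Ucp2, these were Slc25a43 (0.09 and 0) 18448 bases from Slc25a5, Slc25a54 (0 in both) 6461 bases from Slc25a24, and Slc25a41 (0 in both) 2056 bases from Slc25a23. Slc25a29 and Slc25a47, which start 162 bases apart on opposite strands, were at 0 and 0 and at 0 and 1.74, so neither passed the limit in both libraries.

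Some members overlap a gene on the opposite strand, and whether counting used strand is not given in the sources used here, so their counts are uncertain. Slc25a11, with 388 and 198 counts, overlaps Rnf167, with 4039 and 1791. Slc25a25, with 212 and 126 counts, overlaps Naif1, with 150 and 38. Slc25a35, with 25 and 1 counts, overlaps Rangrf, with 102 and 24, and Slc25a26, with 42 and 12, overlaps Lrig1, with 62 and 50. For Slc25a18 the partner Atp6v1e1 had 2524 and 1742 counts beside 3 and 0 for the carrier. Ucp2 overlaps Dnajb13, which had only 36 and 18 counts.

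Transcript shares were read from the authors' isoform percentages for the 23 members whose mean count reached 100. In 17 of them 1 transcript held on average over 50% of the gene's TPM, and in 13 it did so in both libraries. In 20 the leading transcript was classed as protein-coding, and in 17 the same transcript led in both libraries. Slc25a51 is in neither group of 17, because most of its counts are split over 2 near-identical coding models. The median share of the leading transcript was 88.1% in replicate 1 and 73.7% in replicate 2. Slc25a17, Slc25a46 and Slc25a32 have only 1 listed transcript, so their shares of 100% were fixed in advance. These 3 members are included in the counts and medians above. Slc25a16 and Slc25a13 have several and had all their TPM on 1 coding transcript in both libraries. The posterior mean, however, gave Slc25a13-201 only 56.9% and 71.6%. Slc25a5-201 held 98.5% and 88.8%. The members with the most RNA were more mixed.

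For Ucp2, Ucp2-202, the leading coding transcript, held 56.4% of the gene's TPM in replicate 1 and 33.9% in replicate 2 (45.2 ± 15.9 SD, n = 2). Processed transcripts without a coding frame held 27.8% and 53.2%, but only 2.89% and 9.24% of the gene's counts, because these models are short. Among them, Ucp2-208 of 464 bases held 16.7% and 22.6%, and Ucp2-205 of 478 bases held 0.90% and 16.5%. The effective length of Ucp2, averaged over its transcripts, came to 2521 bases in replicate 1, against 1734 in replicate 2. Counted over coding transcripts alone, Ucp2 had 742 and 481 coding-scaled TPM and Slc25a51 had 671 and 630, so the order of the top pair turned round in replicate 2.

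For Slc25a51, the coding models Slc25a51-201 and Slc25a51-202 differ only by 5 bases at the start, with lengths of 4433 and 4438 bases. Their separate shares, 57.8% and 23.9% for Slc25a51-201 in replicates 1 and 2 and 4.03% and 33.8% for Slc25a51-202, therefore cannot be told apart by reads, and the posterior standard deviation of each is 8108 and 1798 counts. Together they held 61.8% and 57.7% of the gene's TPM (59.8 ± 2.90 SD, n = 2), and 89.5% and 87.1% of its counts. Slc25a51-204, a processed transcript of 1022 bases, held 34.8% and 40.9% of the TPM.

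Slc25a39-201 held 49.0% and 58.4% of its gene's TPM, and models with a retained intron held 22.1% and 17.5%. Retained introns were the largest class of Slc25a42, with 69.7% and 74.7%. In 6 members the libraries did not share a leading transcript, namely Slc25a51, Slc25a36, Slc25a42, Slc25a44, Slc25a12 and Slc25a25. For Slc25a51 this came from the split between its near-identical coding models, which together led in both libraries with 61.8% and 57.7%. Of these 6, Slc25a25-205 held 88.1% in replicate 1 and 10.4% in replicate 2, and Slc25a44-201 held 88.6% and 32.5%. Slc25a12-207, a model for nonsense-mediated decay, held 26.8% and 73.9%, while Slc25a45-206 led in both with 90.7% and 53.9%. The posterior mean gave Slc25a25-205 only 32.3% and 7.35%, with a posterior standard deviation of 43.8 on 183 counts in replicate 1. It gave 81.25% and 32.47% for Slc25a44-201, 22.38% and 55.15% for Slc25a12-207, and 83.86% and 47.06% for Slc25a45-206. For Slc25a25 the effective length came to 3153 bases in replicate 1, against 967 in replicate 2, and its level of 4.44 and 16.8 moved with the assigned transcripts.

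**Figure D3:**
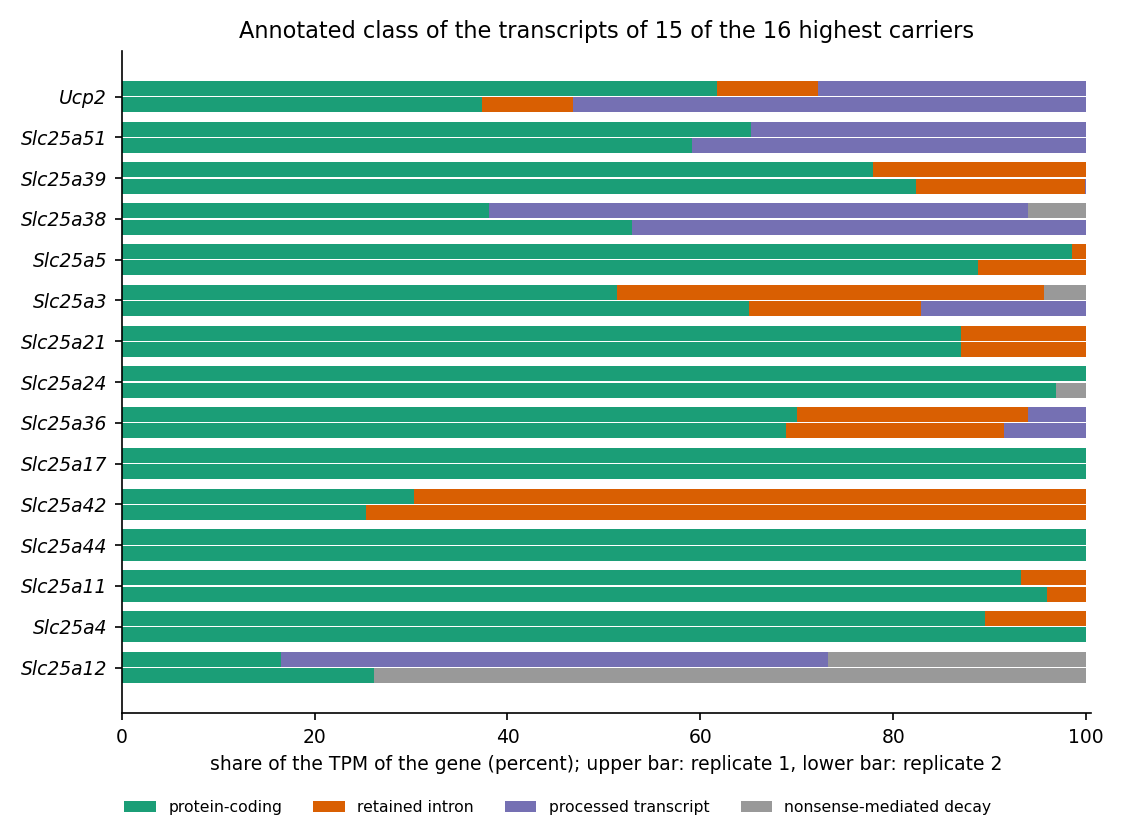
Share of each gene's TPM, in percent, by annotated transcript class for 15 of the 16 highest carriers whose mean count reached 100, with replicate 1 as the upper bar and replicate 2 as the lower bar of each gene. Coding transcripts fill both bars of Slc25a17, which has only 1 listed transcript, and of Slc25a44. They hold 61.7% and 37.4% for Ucp2 and 30.3% and 25.3% for Slc25a42.

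The libraries were set against each other by the log2 ratio of replicate 1 over replicate 2 of scaled counts. Each side is 1 library, so no test was made, and the exact Clopper-Pearson 95% intervals cover counting error only. Of the 23 members whose mean count reached 100, 1 (higher in replicate 1) was at least 2-fold apart. Over the 7658 nuclear protein-coding genes with such counts the share was 8.54%, with 5.62% higher in replicate 1 and 2.93% higher in replicate 2, so 1 of 23 is near the background. Just outside the limit, Slc25a10 had 169 and 48 counts and a log2 ratio of 0.94 (0.47 to 1.43). Slc25a1, with 156 and 30 counts, had a log2 ratio of 1.50 (0.93 to 2.12) but a mean count under 100, so it was not among the 23.

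The median log2 ratio of the 23 members was 0.20, against 0.04 over all such coding genes, and 16 of the 23 lay within 0.5 of 0. The intervals of 17 members excluded 0, with 13 above and 4 below it. Over the 7658 coding genes 69.4% of intervals excluded 0, with 37.9% above and 31.5% below it. Below 0 were Slc25a38 (−0.29), Slc25a21 (−0.19), Slc25a12 (−0.38) and Slc25a46 (−0.44), and of the most abundant members Slc25a51 had 0.09, Slc25a39 0.37 and Slc25a5 −0.07. With library size alone as the scaling the median over coding genes moved to 0.19, and 19 of the 23 members then had ratios above 0 in place of 15. Ucp2 had a log2 ratio of 0.53 (0.51 to 0.56) by counts and of −0.10 by coding-scaled TPM, and Slc25a51 and Slc25a12 also had opposite signs on these scales. Slc25a25 had −0.13 by counts and −1.92 by coding-scaled TPM, the widest gap of these members and one that follows its effective lengths.

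**Figure D4:**
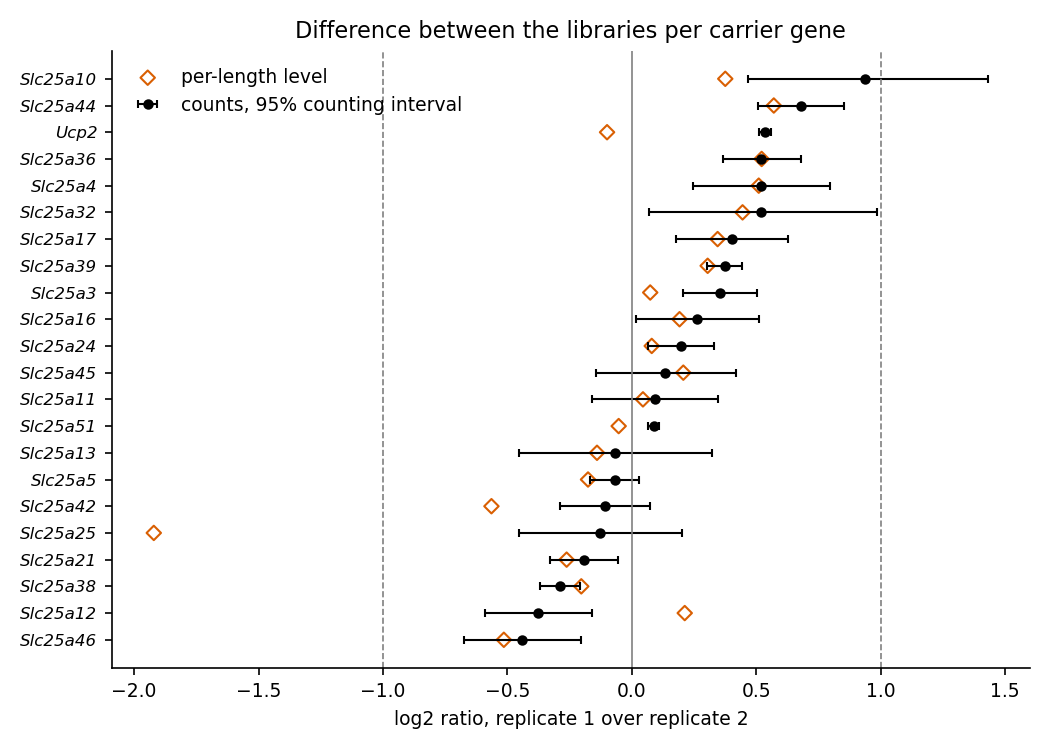
Log2 ratio of replicate 1 over replicate 2 for 22 of the 23 carriers whose mean count reached 100, by counts (filled, with exact 95% intervals for counting error) and by coding-scaled TPM (open); dashed lines mark 2-fold. Slc25a10 lies just inside the 2-fold line at 0.94, and the other carriers shown lie between −0.44 and 0.68 by counts; by coding-scaled TPM Slc25a10 is at 0.38 and Slc25a25, at −1.92, is the lowest.

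Genes that work with the carriers were taken from 3 lists. Of 13 genes that import carrier proteins into mitochondria, 12 were detected, with a median level of 9.86 coding-scaled TPM in replicate 1 and 10.01 in replicate 2, and 1 of 8 with enough counts, Timm8b, was at least 2-fold apart (log2 ratio 1.31). Of 20 other transporters of mitochondrial membranes, 19 were detected, with medians of 36.9 and 36.0. The highest was Abcb10, an inner membrane transporter needed for heme synthesis, with 472 and 537, followed by Mpc2, a subunit of the pyruvate carrier, with 190 and 301, and Tmem14c, a porphyrin transporter, with 158 and 254. In this list 5 of 18 genes were at least 2-fold apart, all higher in replicate 1: Mpc1, Sfxn1, Sfxn2, Sfxn4 and Mcu, with log2 ratios of 1.02 to 1.40, where 5.62% of coding genes were 2-fold higher in that library. Of 21 enzymes that use the carried substrates, 20 were detected, with medians of 28.8 and 25.2, and 0 of 17 were at least 2-fold apart. Beside Alas2, the beta subunit of ATP synthase, Atp5b, had 566 and 432 coding-scaled TPM, and Gclc, which makes the precursor of glutathione, had 90.7 and 115.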

How the data were processed

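Gene and transcript tables of 2 libraries were used. Per the file headers, the authors' deposited tables hold expected counts (estimated counts that need not be whole), TPM (a share over all features), lengths and effective lengths in bases, posterior mean counts and TPM with standard deviations of the counts, and, per transcript, the isoform percent, the percent of the gene's TPM. The reference was mm10 per the labels, with GENCODE release M4 named in the deposited records; aligner, quantifier and strand use: not given in the sources used here. Of 43346 Ensembl genes, 42462 (98.0%) had an entry in GENCODE release M21, looked up by identifier, which gave symbols, coordinates and transcript classes; of 221 member transcripts, 3 did not match. Features without an Ensembl gene (8 and 28 counts in replicates 1 and 2) were left out.

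TPM was rescaled to a sum of 1000000 over 21461 nuclear protein-coding genes. Expected counts were rounded, scaled with TMM factors (edgeR 4.0.16, R 4.3.3) and compared as the ratio of replicate 1 over replicate 2 for genes whose mean count reached 100; this step was tested on simulated data. DESeq2 1.42.0 size factors were an alternative. No molecular identifiers were used, so intervals and floors cover counting error only. Promoters came from RefSeq tables on GRCm38.p6, and Python 3.11.15 was used. Every member could be named; 1 member counted in the summaries is not reported here. The members, the role, partner and marker lists and the detection limit were chosen with earlier results of these data known. Protein sequences were not used here.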

Additional observations from a re-analysis of the deposited data

How the results depend on the processing

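With 2 libraries of 1 group, leaving out each library gave 32 to 33 detected carriers (31 in both), a median level of 3.55 to 4.93 coding-scaled TPM, a summed level of 3288 to 3391, an uncoupling share of 36.7% to 38.0% and 16 to 17 leading transcripts over 50%. The count of detected members fell to 12 with a deposited TPM of at least 1 and to 16 with 10 coding-scaled TPM as the limit. The median level of 4.24 became 5.67 with posterior mean TPM, 6.57 with globin genes left out of the scaling and 9.72 over members whose mean count reached 10. The summed level of 3339 became 5210 without globin genes. Over protein-coding transcripts only the summed level became 2408, and the uncoupling share was 30.3% in place of 37.4%. This alternative was chosen after seeing the data. Its levels, single genes included, were scaled again over coding transcripts alone. The 2408 is therefore not the sum of the levels given elsewhere over coding transcripts, which were not scaled again. Slc25a17 had 25.2 and 19.9 there, against a mean of 27.0 under this alternative. Shares and folds do not depend on this scaling. The number of members at least 2-fold apart, 1, became 2 with library size alone, 2 by coding-scaled TPM (1 in each direction), 9 of 36 where the mean count reached 10 (21.9% of coding genes) and 14 of 41 with any count (32.4%). Over coding transcripts, 10 of 14 folds between chosen pairs of carriers moved, where some pairs share a role list and others do not. Those of Ucp2 over Slc25a51, Slc25a38 over Slc25a5, Slc25a12 over Slc25a13 and Slc25a42 over Slc25a16 changed sign. Their mean log2 folds became −0.12, −0.34, −0.47 and −0.68, in this order. By coding-scaled TPM the log2 ratios of Ucp2, Slc25a51 and Slc25a12 changed sign, to −0.10, −0.05 and 0.21. Of single genes, 57 of 147 alternative levels (29 of them by leaving globins out of the scaling, which moves all genes alike) and 16 of 92 ratios, and of role lists 15 of 32 shares, moved beyond their spread or interval, leaving one library out not counted. No paired analysis was possible because there is 1 group, and the ratios have no value without either library because each side is 1 library. Depth limits what a count of 0 shows, since up to 3 counts could be missed in a library.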

Other observations

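Of the 6 brain markers, Gfap, the intermediate filament of astrocytes, was detected, with 53.2 coding-scaled TPM in replicate 1 and 45.4 in replicate 2, from 1984 and 757 counts, while 4 of the 6 were at 0 in both libraries. Nnt, the transhydrogenase that is known to carry a deletion in C57BL/6J mice, had 5.42 and 5.66 coding-scaled TPM, from 260 and 133 counts. Gm10603, annotated on the strand opposite Ucp3, had 3560 and 1863 counts, where Ucp3 itself had 0 and 10. Gfap, Nnt and Gm10603 were singled out after their values were seen.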
